A study of Mus musculus with 10 samples.

Results

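A set of 31 mouse genes whose human counterparts are recurrently altered in myeloid leukaemia and related blood cancers was followed through 10 RNA-seq libraries of sorted bone marrow cells. The genes were chosen by name from knowledge of the disease and fall into signalling (7 genes), chromatin (10), splicing (3), cohesin (3), transcription and p53 (4), and metabolism, nucleolus and nuclear pore (4). All 31 are among the 38086 gene IDs present in both deposited count tables. Dnmt3a, the gene deleted in these mice, is itself such a driver and served as the check of the labels.

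The cells came from 12-month-old C57BL/6 mice. LSK cells (Lin-, Sca1+, cKit+) are the fraction of the marrow enriched for blood stem cells and early multipotent progenitors, and GMP cells (Lin-, Sca1-, cKit+, CD34+, FcgR+) are granulocyte-macrophage progenitors. All animals carried loxP-flanked (floxed) alleles of Dnmt3a and, per the labels, 5 injections of poly(I:C). KO animals also carried Mx1-Cre, whose interferon-inducible promoter acts in blood-forming cells but also in other tissues. CTRL animals lacked Cre, so loss of Dnmt3a and presence of Cre cannot be told apart. There were 3 KO and 2 CTRL libraries per population, and each is called by its title number. Nothing in the labels beyond these numbers says that the libraries came from separate animals, so p-values measure the spread between libraries, which may be technical.

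Myeloid leukaemia arises stepwise. Changes in DNA methylation genes such as DNMT3A are often found in long-lived clones before disease, whereas changes in signalling genes tend to be acquired later. The other classes act on the chromatin, on RNA splicing, on the cohesin ring that loops chromosomes and on the p53 response. The comparisons address whether RNA of these cooperating genes differed where Dnmt3a was deleted, and how it was distributed between stem cell-enriched and committed progenitors. RNA levels say nothing of sequence changes in these genes, which were not analysed here.

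Reads on genes numbered 93850256 to 122658636 per GMP library and 29533371 to 30437981 per LSK library, so a gene without reads could have reached a higher CPM (the depth-scaled read count of edgeR) unseen in LSK. A count of 0 allows up to 3 reads, or 0.0245 to 0.0320 CPM in GMP and 0.0986 to 0.102 CPM in LSK, counting error only. These floors use plain totals of gene reads and not the scaled library sizes of the other CPM values. The 8 LSK-defining markers summed to 2046 to 2586 CPM in LSK and 700.2 to 765 CPM in GMP, and the 8 GMP-defining markers to 3352 to 4089 CPM in LSK and 16664 to 26680 CPM in GMP. Both lists hold Kit and Cd34, which were higher in LSK. At 234 and 495 CPM in GMP CTRL-346 they made most of its 765 CPM of LSK markers. In LSK CTRL-1326 they stood at 880 and 912 CPM, within its 4089 CPM of GMP markers. GMP KO-352, whose description refers to the LSK data in conflict with its title, carried 22552 CPM of the GMP markers and 705 CPM of the LSK markers, within the range of the other GMP libraries. Reads outside annotated genes made 8.50% and 10.3% of the reads listed in GMP CTRL-346 and KO-352, but 14.2%, 15.5% and 16.1% in CTRL-350, KO-178 and KO-179. By Xist and Y-linked reads the GMP libraries were male, as were LSK CTRL-1326 and KO-1327, whereas LSK CTRL-1330, KO-1333 and KO-1334 were female.

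Dnmt3a (ENSMUSG00000020661, GRCm38 chromosome 12, 3806007 to 3914443, plus strand), a de novo DNA methyltransferase, was at 143 and 115 CPM in GMP CTRL and at 51.7, 65.9 and 20.5 CPM in GMP KO-178, KO-179 and then KO-352. In LSK it was at 151 and 145 CPM in CTRL and at 55.5, 51.2 and 57.1 CPM in KO. KO libraries lay below CTRL libraries in both populations. Counts per gene also hold reads from exons that a deletion leaves in place. The log2 fold change was -1.43 ± 0.08 (SE) in LSK (edgeR quasi-likelihood test, Benjamini-Hochberg adjusted p = 0.000106) and -1.50 ± 0.42 in GMP, where it did not pass (adjusted p = 0.3002). In a fit of all 10 libraries the LSK call was lost, at -1.44. Without KO-352 the GMP call passed, at -1.14 (adjusted p = 0.0493).

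Most driver genes were well expressed in every group. Per kilobase of exon, 29 of 31 stood above the median of the genes tested in GMP CTRL and 28 of 31 in LSK CTRL, with a median rank at the 81.7th and 87.7th percentile. Calr was the most abundant member in GMP CTRL, at 1783 CPM per kb (99.9th percentile), followed by Npm1 at 642, Idh2 at 182, Srsf2 at 133 and Idh1 at 110. In LSK CTRL the order was Npm1 at 378, Calr at 369, Idh2 at 93.4, Srsf2 at 80.7 and Sf3b1 at 67.2 CPM per kb. Npm1 and Calr, neighbours in that LSK order, differed by less than their spread between libraries. At the low end stood Nf1, at 3.9 CPM per kb in GMP CTRL and 4.1 in LSK CTRL, followed in GMP CTRL by Kmt2a at 6.7, Kmt2c at 6.8 and Kmt2d at 6.9, which differed from each other by less than their spread between libraries. Setbp1 and Wt1 were near 0.

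**Figure D1:**
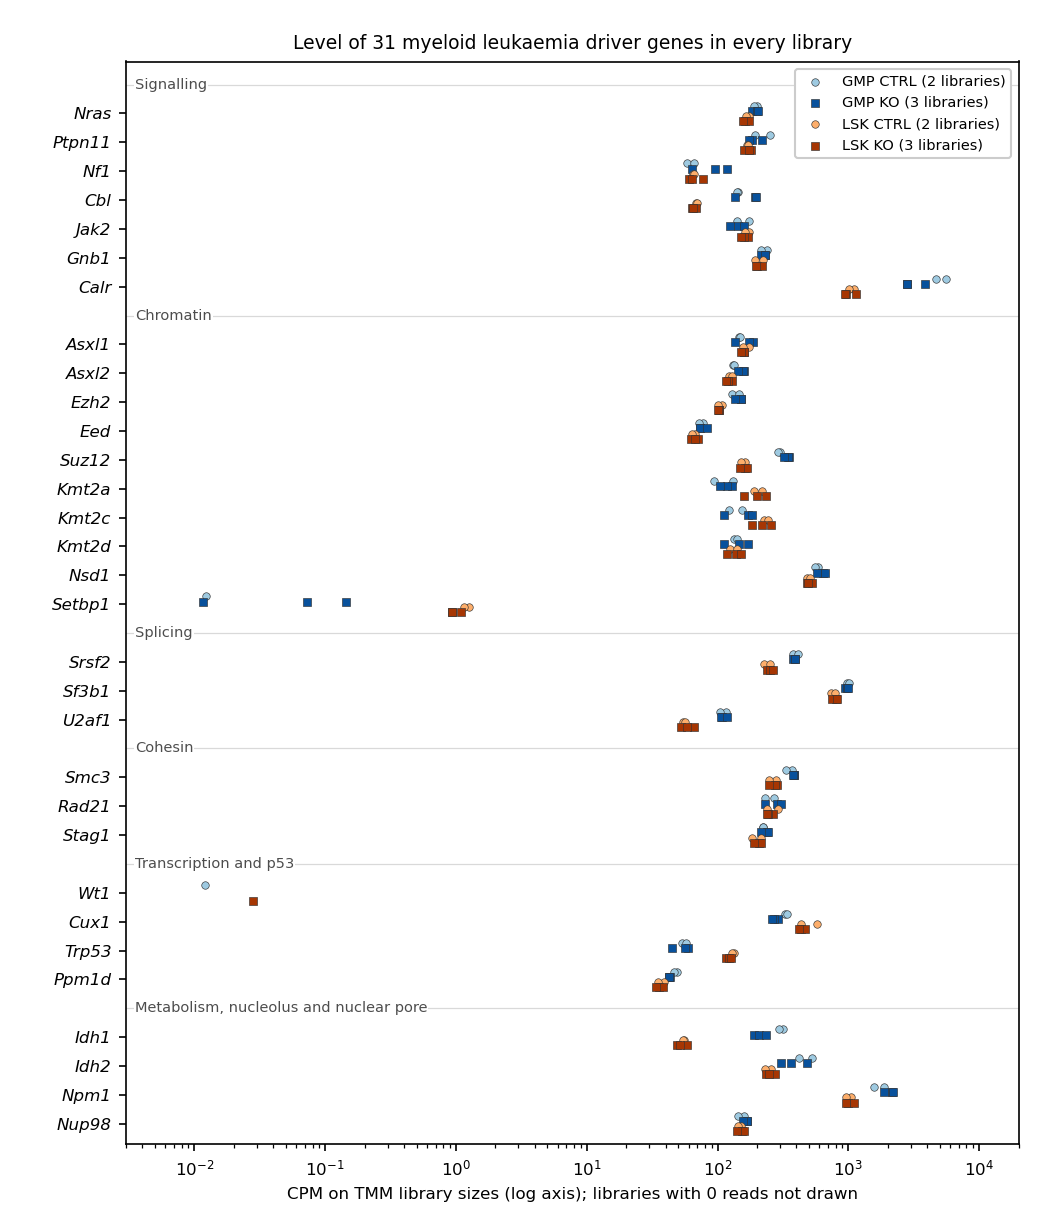
Level of each driver gene (rows, by class) in each library, as CPM on TMM library sizes on a log axis. Circles are CTRL and squares KO, blue GMP and orange LSK; Calr and Npm1 stand near or above 1000 CPM in every library, and Setbp1 reaches about 1 CPM in LSK alone.

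To show what kind of sequence starts these genes, promoters were read for the 26 of 31 members matched in the RefSeq promoter table (GRCm38.p6, 29 promoters, of which the 250 bases before each start were used). Their CpG count, the substrate of DNMT3A, ran from 9 to 48 with a median of 26, beside a median of 6 over all 32851 promoters, and their median GC content was 67.2%, beside 52.4%. The endoplasmic reticulum stress element, searched on both strands as CCAAT and CCACG with 9 bases of any kind between them, was found in the Calr promoter and in no other matched member, and in 37 of all 32851 promoters (0.113%). The match is a description of letters and not a measured site. The element is tied by name to endoplasmic reticulum genes such as Calr, so a match there is no independent result. The 4 promoters shown belong to Calr and Idh1, the members furthest below GMP in LSK, Suz12, a CpG-dense one, and Trp53, with the fewest CpGs among the members. In Calr (chr8:84846932-84847181, minus strand) capitals mark the element on the opposite strand, 162 to 144 bases before the start. In Idh1 (chr1:65186480-65186729, minus strand), Suz12 (chr11:79992856-79993105, plus strand) and Trp53 (chr11:69580109-69580358, plus strand) capitals mark the 18, 37 and 9 CpGs.
Calr: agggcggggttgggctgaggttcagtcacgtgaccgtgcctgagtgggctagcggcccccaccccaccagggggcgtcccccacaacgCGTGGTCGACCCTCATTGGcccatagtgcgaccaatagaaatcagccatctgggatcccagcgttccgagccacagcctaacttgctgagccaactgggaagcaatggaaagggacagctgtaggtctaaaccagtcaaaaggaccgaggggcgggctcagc
Idh1: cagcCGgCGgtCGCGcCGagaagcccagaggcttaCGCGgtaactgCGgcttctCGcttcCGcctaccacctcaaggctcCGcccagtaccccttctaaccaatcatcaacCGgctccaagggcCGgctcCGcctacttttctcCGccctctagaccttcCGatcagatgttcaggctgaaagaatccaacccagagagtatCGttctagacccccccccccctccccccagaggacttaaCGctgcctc
Suz12: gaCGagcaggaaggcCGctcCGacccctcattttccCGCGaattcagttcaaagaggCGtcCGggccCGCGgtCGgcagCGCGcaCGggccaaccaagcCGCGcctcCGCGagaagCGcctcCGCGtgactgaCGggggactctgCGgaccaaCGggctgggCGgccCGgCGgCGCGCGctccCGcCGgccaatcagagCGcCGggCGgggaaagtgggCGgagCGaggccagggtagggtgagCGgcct
Trp53: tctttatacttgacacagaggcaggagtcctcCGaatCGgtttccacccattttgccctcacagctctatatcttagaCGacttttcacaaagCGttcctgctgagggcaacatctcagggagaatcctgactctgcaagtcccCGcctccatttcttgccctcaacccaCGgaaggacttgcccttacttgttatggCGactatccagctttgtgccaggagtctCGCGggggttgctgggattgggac
The Calr window holds 13 CpGs. No methylation was measured in these libraries, so the CpGs are shown as sequence context only.

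In GMP, none of the 29 driver genes tested passed the threshold between KO and CTRL (edgeR quasi-likelihood test, adjusted p under 0.05), where 6 of 17290 genes did (0.0347%). At an unadjusted p under 0.05 there were 3 of 29, beside 13.8% of all genes. These were Idh1, Calr and Cux1, each lower in KO. DESeq2 called 2 of the 29, Calr and Idh1, beside 2.81% of the 25548 genes it tested, and limma-voom called 0. The DESeq2 genes were not filtered on low counts as the 29 were, so its share is not of a like set. The median log2 fold change of the members was 0.04, beside 0.01 over all genes, and their median absolute change 0.13, beside 0.25. For 27 of 29 the 95% interval of the change lay within 2-fold in either direction and for 22 within 1.5-fold. KO libraries lay all above CTRL for Asxl2, Suz12, Smc3 and Npm1 (beside 17.7% of all genes) and all below for Calr, Cux1, Ppm1d and Idh1 (beside 14.6%). That is 8 of 29, or 27.6%, beside 32.2% of all genes. With library sizes scaled within GMP alone the count stayed at 8, with Sf3b1 below in place of Npm1 above.

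**Figure D2:**
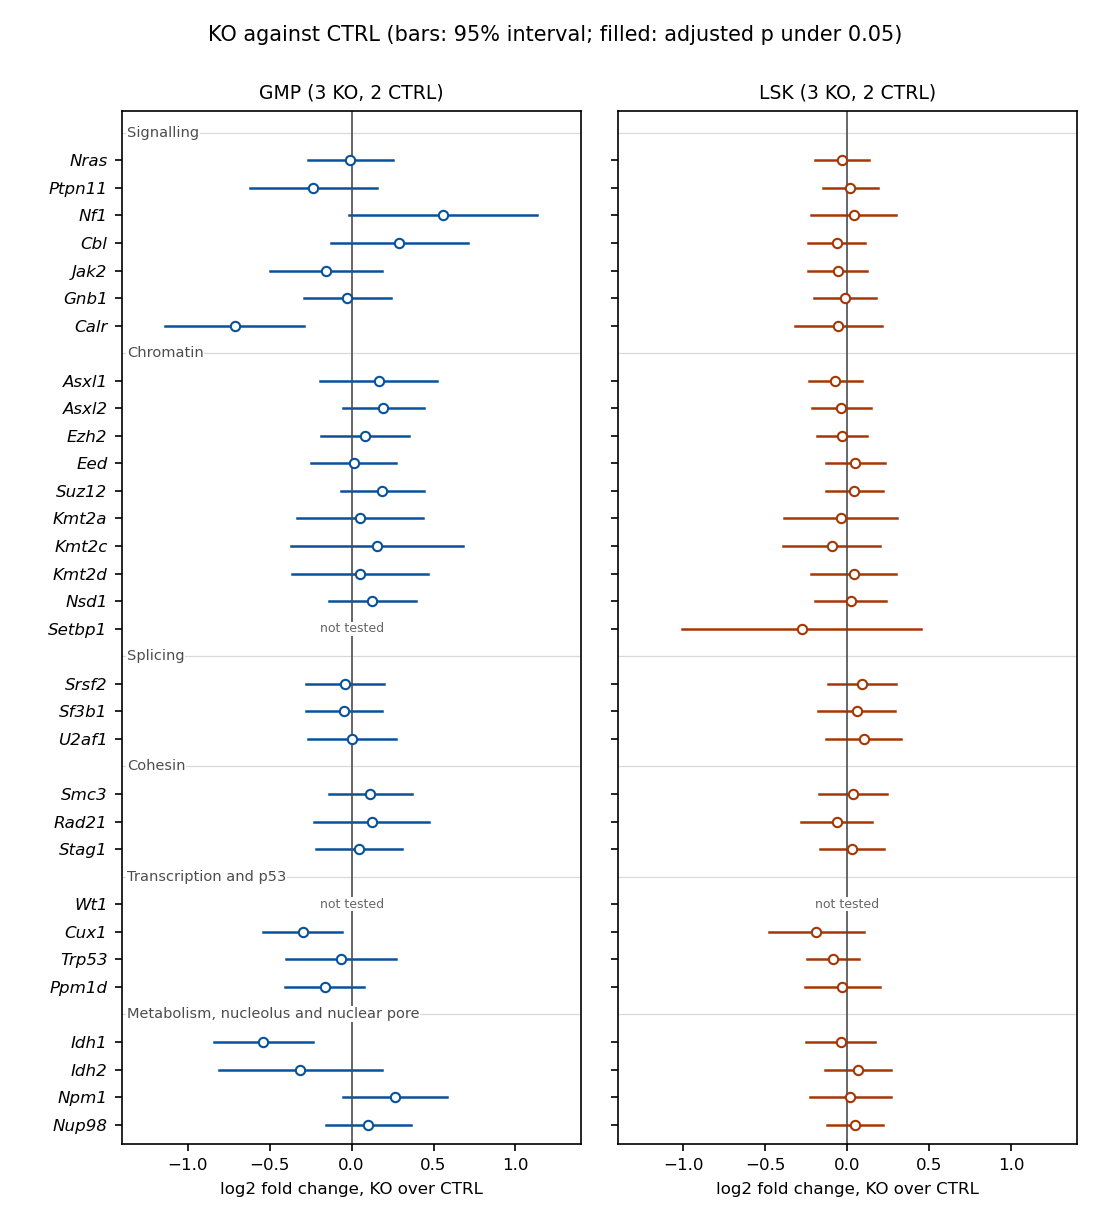
Fitted log2 fold change of KO over CTRL for each driver gene in GMP (left) and LSK (right), with 95% intervals as bars; filled points would mark an adjusted p under 0.05 and none is filled. Calr, Idh1 and Cux1 in GMP are the intervals that leave out 0, and the LSK intervals are shorter than those of GMP for all genes tested in both but Sf3b1 and Cux1.

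Calr (ENSMUSG00000003814, chromosome 8, 84841850 to 84846934, minus strand) encodes calreticulin, a calcium-binding chaperone that folds glycoproteins in the endoplasmic reticulum, and altered forms of it activate the thrombopoietin receptor in myeloproliferative neoplasms. It was at 5613 and 4658 CPM in GMP CTRL-346 and CTRL-350 and at 2798, 2811 and 3877 CPM in KO-178, KO-179 and then KO-352. All KO libraries lay below both CTRL libraries, with KO-352 nearest to them. The log2 fold change was -0.71 ± 0.18 (edgeR, adjusted p = 0.271). DESeq2 gave -0.73 (adjusted p = 0.0164). An edgeR fit with the percentage of reads off genes as a covariate gave -0.54 ± 0.07 (adjusted p = 0.0210). Over 13 alternatives the adjusted p ran from 0.0164 to 0.809, with the value between -0.88 and -0.54. Calr has 1 named pseudogene, and multi-mapped reads entered no gene count.

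Idh1 (ENSMUSG00000025950, chromosome 1, 65158616 to 65186500, minus strand) is the cytosolic isocitrate dehydrogenase that makes 2-oxoglutarate, the cofactor of TET and other dioxygenases. It was at 317 and 293 CPM in GMP CTRL-346 and CTRL-350 and at 191, 209 and 235 CPM in KO-178, KO-179 and then KO-352. The groups did not overlap, and KO-352 was again nearest to CTRL. Its log2 fold change was -0.54 ± 0.13 (edgeR, adjusted p = 0.264), and DESeq2 gave -0.55 (adjusted p = 0.0109). Over 13 alternatives the adjusted p ran from 0.0109 to 0.809. Idh2, the mitochondrial form, was at 526 and 417 CPM in CTRL and at 363, 305 and 482 CPM in KO-178, KO-179 and then KO-352, with groups that overlapped (-0.31 ± 0.21, adjusted p = 0.519). Of 8 further isocitrate and 2-oxoglutarate enzymes 7 had negative values and none passed, with a median of -0.05.

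Cux1 (ENSMUSG00000029705, chromosome 5, 136248135 to 136567490, minus strand), a homeodomain transcription factor, was at 325 and 341 CPM in GMP CTRL and at 288, 272 and 259 CPM in KO-178, KO-179 and then KO-352. No KO library reached a CTRL library. Its log2 fold change was -0.30 ± 0.10 (edgeR, adjusted p = 0.326). Ppm1d, the phosphatase that ends p53 and DNA damage signalling, was also lower in every KO library, at 42.2, 43.3 and 42.8 CPM beside 48.8 and 46.3 CPM in CTRL, a difference of -0.16 ± 0.10 (adjusted p = 0.484). Trp53, which encodes p53, was at 59.3, 44.5 and 56.2 CPM in KO and at 53.1 and 57.6 CPM in CTRL, with full overlap (-0.07 ± 0.14). None of 9 p53 partners passed; Chek2, a kinase that activates p53, gave -0.44 ± 0.16 (adjusted p = 0.331) and Mdm4, a p53 inhibitor, 0.64 ± 0.25 (adjusted p = 0.344).

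Signalling members other than Calr had values on both sides of 0 in GMP. Nf1, the GTPase-activating protein that switches RAS off, was at 58.1 and 65.9 CPM in CTRL-346 and CTRL-350 and at 117, 95.3 and 63.6 CPM in KO-178, KO-179 and then KO-352. KO-178 and KO-179 were high, and KO-352 lay between the CTRL libraries (0.56 ± 0.24, adjusted p = 0.367). Cbl, a ubiquitin ligase that ends receptor signalling, was also high in KO-178 and KO-179, at 195 and 198 CPM beside 145 and 142 CPM in CTRL, whereas KO-352, at 137 CPM, lay below both CTRL libraries (0.29 ± 0.18, adjusted p = 0.477). Ptpn11, the SHP2 phosphatase that relays receptor signals to RAS, was at 252 and 194 CPM in CTRL and at 183, 174 and 218 CPM in KO (-0.23 ± 0.16). Nras, a RAS GTPase, and Gnb1, a G-protein beta subunit, differed little between groups (-0.01 ± 0.11 and -0.03 ± 0.11), and Jak2, the kinase of the erythropoietin and thrombopoietin receptors, gave -0.16 ± 0.14 (adjusted p = 0.637). Neither the 16 RAS-MAPK partners nor the 10 JAK-STAT partners held a gene that passed. The smallest p among them belonged to Gab2, a docking protein (0.64 ± 0.21, adjusted p = 0.317), Map2k2, a MAPK kinase (-0.73 ± 0.26, 0.332), Socs3, an inhibitor of JAK kinases (1.88 ± 0.58, 0.311), and Tyk2, a JAK kinase (-0.43 ± 0.15, 0.326).

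All 9 chromatin members tested had positive values in GMP, from 0.01 (Eed) to 0.19 (Asxl2), with a median of 0.13, beside 0.01 over all genes, and none passed. Suz12, a subunit of the PRC2 complex that writes a repressive histone mark, was at 302 and 289 CPM in CTRL and at 351, 348 and 320 CPM in KO-178, KO-179 and then KO-352, without overlap (0.19 ± 0.11, adjusted p = 0.452). Ezh2, the catalytic subunit, and Eed, a further core subunit, overlapped between groups (0.08 ± 0.11 and 0.01 ± 0.11). Asxl2, a partner of the BAP1 deubiquitinase, was at 132 and 134 CPM in CTRL and at 160, 156 and 144 CPM in KO, also without overlap (0.19 ± 0.10, adjusted p = 0.433). It lies 299 kb from the deleted gene on chromosome 12. Asxl1, its paralog, had overlapping groups (0.16 ± 0.15), as had the COMPASS methyltransferases Kmt2a (0.05 ± 0.16), Kmt2c (0.16 ± 0.22) and Kmt2d (0.05 ± 0.18), and Nsd1, whose histone mark DNMT3A reads (0.13 ± 0.11). None of 8 PRC2, 12 COMPASS and 8 ASXL-BAP1 partners passed; Men1, which anchors KMT2A to chromatin, gave -0.67 ± 0.24 (adjusted p = 0.334) and Ncoa6, a COMPASS subunit, 0.59 ± 0.23 (0.344).

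The splicing and cohesin members differed little in GMP, and the classes were not compared by a test. Srsf2, which binds exonic enhancers, Sf3b1, which holds the branch point, and U2af1, which reads the end of the intron, gave -0.04 ± 0.10, -0.05 ± 0.10 and 0.00 ± 0.11. All 3 intervals lay within 1.5-fold. Srsf2 was at 377 and 412 CPM in CTRL and at 375, 393 and 391 CPM in KO, with overlap. Its exons share 25.3% of their bases with Mettl23 and Mfsd11 on the opposite strand, and whether the counting used strand is not stated. The antisense transcript BC018473, 90.5 kb away on chromosome 11, stood at 736 CPM in the GMP library KO-178 and at 46.8, 52.8 and 54.7 CPM in the LSK KO libraries, and at most 0.144 CPM in the other 6. Srsf2 did not stand out in those 4 libraries. Smc3, a core ATPase of the cohesin ring, was at 369 and 333 CPM in CTRL and at 384, 384 and 380 CPM in KO, just without overlap (0.11 ± 0.11, adjusted p = 0.645). Rad21, the kleisin that closes the ring, and Stag1, which loads onto it, overlapped (0.12 ± 0.15 and 0.04 ± 0.11). None of 16 splicing and 12 cohesin partners passed, with medians of -0.12 and 0.05; Sf3b5, a subunit of the SF3B complex, gave -0.76 ± 0.27 (adjusted p = 0.336).

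Npm1, the nucleolar chaperone, was at 1860 and 1564 CPM in GMP CTRL and at 2148, 1867 and 2203 CPM in KO-178, KO-179 and then KO-352, KO-179 being level with CTRL-346 (0.26 ± 0.13, adjusted p = 0.417). Nup98, a nuclear pore protein, gave 0.10 ± 0.11, with overlap. Of 10 nucleolar and nuclear transport partners 7 had positive values and none passed; Ncl, which encodes nucleolin, gave 0.45 ± 0.19 (adjusted p = 0.366).

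**Figure D3:**
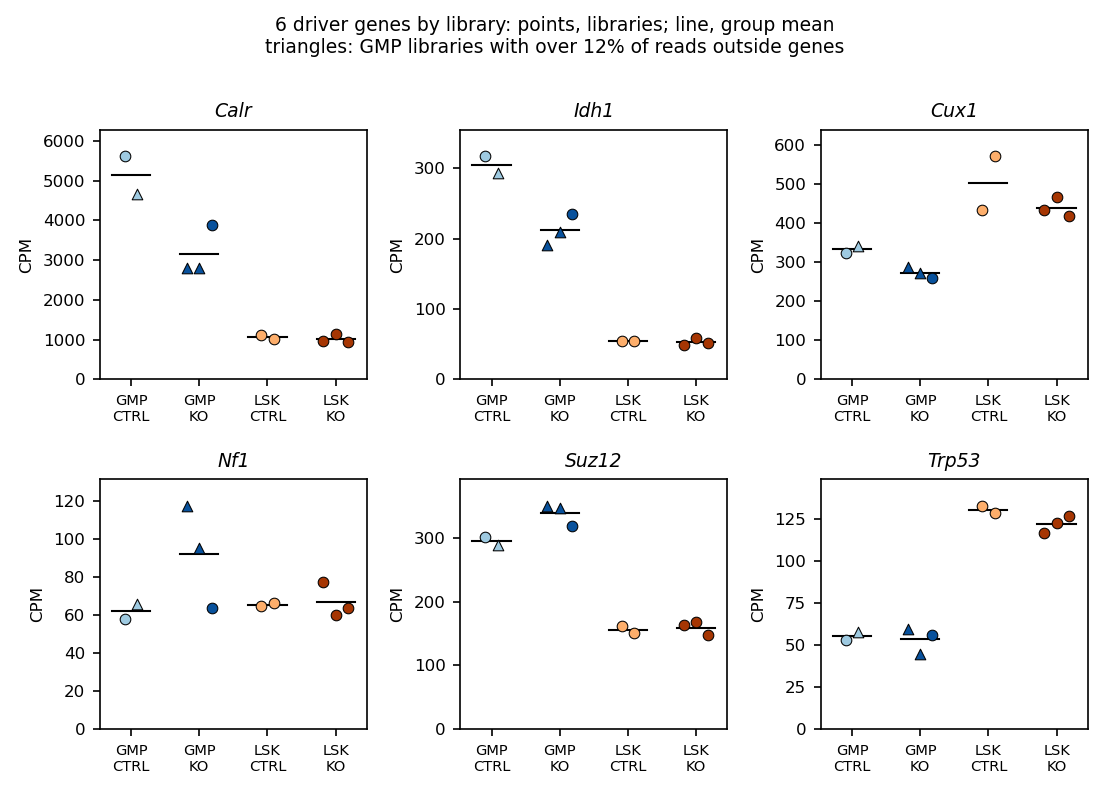
CPM of 6 driver genes in every library (points) with the group mean (line), on axes that start at 0; triangles are the GMP libraries with over 12% of reads outside genes. In GMP, Calr, Idh1 and Cux1 lie lower in every KO library, Nf1 is high in KO-178 and KO-179 alone, and Trp53 is higher in every LSK library than in any GMP library.

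The GMP libraries fell into a pair with a low share of reads outside genes (CTRL-346 and KO-352) and 3 with a high share (CTRL-350, KO-178 and KO-179). Within these parts, 1 KO against 1 CTRL and 2 KO against 1 CTRL, 17 of 29 members had the same sign of KO minus CTRL, beside 66.7% of all genes, and 12 had opposite signs. Calr was lower in KO in both (log2 -0.53 and -0.73), as were Idh1 (-0.43 and -0.55) and Cux1 (-0.33 and -0.29). Suz12 and Asxl2 were higher in both (0.08 and 0.27, and 0.13 and 0.24). Nf1 gave 0.13 and 0.69, and Cbl -0.08 and 0.47. Among the 9 chromatin members 5 were higher in KO in the low pair. KO-178 and KO-179 stood together above the other 3 libraries for 13 of 29 members (beside 24.7% of all genes), among them Nf1, Cbl and 7 of the chromatin members tested, and below them for 5 of 29 (beside 23.5%), Ptpn11, Calr, Sf3b1, Idh1 and Idh2.

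Other marker lists also differed between the GMP libraries, not all of them along this split. The 14 cell cycle genes summed to 6318 to 6605 CPM in GMP KO and 7234 to 7356 CPM in GMP CTRL, with 11 of 14 lower and none called. The 10 mast cell, basophil and eosinophil genes summed to 1016 to 1295 CPM in KO and 1687 to 4528 CPM in CTRL, with 10 of 10 lower and Hdc alone called. The 8 mature neutrophil genes summed to 2627, 5051 and 684 CPM in KO-178, KO-179 and then KO-352 and to 1072 and 2615 CPM in CTRL-346 and CTRL-350. The 6 erythroid genes summed to 57.6 and 47.5 CPM in KO-178 and KO-179 and to 3.70 to 18.9 CPM in the other 3 libraries. Most of this was Car1, a carbonic anhydrase, at 52.9 and 43.6 CPM beside 1.61 to 12.1 CPM, while the haemoglobin genes Hba-a1 and Hbb-bs reached at most 0.0726 and 2.01 CPM in GMP. The 6 antigen-presenting cell genes summed to 25.3 and 279 CPM in CTRL-346 and CTRL-350 and to 42.9, 180 and 20.8 CPM in KO, with 6 of 6 values negative and none called. No gene of these 5 lists was at 0 reads over a GMP group. The 6 T and NK cell genes summed to 276 to 362 CPM in KO and 422 to 508 CPM in CTRL, mostly Nkg7. Of the 5 tested, 2 had negative values. The 7 B cell genes summed to 36.5 to 48.4 CPM in KO and 43.2 to 43.3 CPM in CTRL, with 6 of 6 tested negative. Of the 8 GMP-defining genes 6 were negative, and of the 8 LSK-defining genes 2. None of these 4 lists held a called gene. The part of such cells in the values of Calr, Idh1 and the other members was not tested. In bulk RNA, fewer cells of a type and less RNA per cell cannot be told apart.

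In LSK, 0 of 30 driver genes tested passed between KO and CTRL by edgeR, limma-voom or DESeq2, where edgeR called 0.0232% of all genes. None had an unadjusted p under 0.05, beside 2.83% of all genes. Changes ran from -0.28 (Setbp1) to 0.10 (U2af1), with a median of -0.02 and a median absolute change of 0.05, beside 0.10 over all genes. The 95% interval lay within 1.5-fold for 29 of 30, all but Setbp1. Over the 5 LSK libraries all 30 members tested stayed within 1.5-fold between the lowest and the highest, whereas in GMP 23 of 29 did, the others being Nf1, Calr, Kmt2c, Kmt2d, Idh1 and Idh2. KO libraries lay all below CTRL for Cbl, Setbp1 and Trp53 (beside 7.67% of all genes) and all above for none (beside 6.56%), which is 3 of 30, beside 14.2%. Scaled within LSK alone, Cbl overlapped and the count was 2. The 6 antigen-presenting cell genes, 4 of them for MHC class II presentation, also lay below CTRL in every LSK KO library. They summed to 177 to 287 CPM in KO and 312 to 474 CPM in CTRL, and 6 of 6 had an unadjusted p under 0.05 but none passed after adjustment. Other lists also differed. The 10 mast cell, basophil and eosinophil genes summed to 111 to 141 CPM in KO and 153 to 168 CPM in CTRL. Of the 9 tested, 8 had negative values and 3 an unadjusted p under 0.05 (edgeR). Of 6 T and NK cell genes 5 were negative, 3 of the 6 at that p, and of 7 B cell genes 7 were positive, 1 at that p. No gene of these lists passed after adjustment. The part of such cells in the LSK values was not tested.

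The smallest p in LSK belonged to Cux1, Trp53 and Asxl1. Cux1 was at 435 and 572 CPM in CTRL-1326 and CTRL-1330 and, in KO, at 434 (KO-1327), 467 (KO-1333) and 419 (KO-1334) CPM, the high CTRL-1330 standing alone (-0.19 ± 0.13, edgeR, adjusted p = 0.9998). Without CTRL-1330 its sign turned, to 0.04. Trp53 was at 133 and 128 CPM in CTRL and at 117, 123 and 127 CPM in KO, KO-1334 lying just under CTRL-1330 (-0.09 ± 0.07). Asxl1 was at 174 and 157 CPM in CTRL and at 160, 158 and 152 CPM in KO, with overlap (-0.07 ± 0.07). Calr was at 1106 and 1017 CPM in CTRL and at 964, 1148 and 938 CPM in KO (-0.05 ± 0.12), and Idh1 at 55.0 and 54.6 CPM in CTRL and 48.7, 58.5 and 51.9 CPM in KO (-0.04 ± 0.09), both with overlap. By class, the median was -0.03 for signalling, -0.03 for chromatin, 0.09 for splicing, 0.03 for cohesin, -0.09 for transcription and p53 and 0.03 for metabolism, nucleolus and nuclear pore. No partner list held a gene that passed in LSK.

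The difference of the KO effects between populations (LSK minus GMP, fit of all 10 libraries) passed for 0 of 30 members, beside 0.0265% of all genes, and 3 had an unadjusted p under 0.05, beside 10.1%. DESeq2 and limma-voom called 0. For Calr the difference was 0.64 ± 0.22 (edgeR, adjusted p = 0.425, 95% interval 0.15 to 1.13) and for Idh1 0.48 ± 0.16 (adjusted p = 0.410, interval 0.13 to 0.83). Without GMP KO-352 the Calr difference was 0.83 ± 0.17 and passed (adjusted p = 0.0419), and over 15 alternatives its adjusted p ran from 0.0419 to 0.731. The fit without KO-352 called 513 of 16760 genes, beside 5 of 18836 with all libraries. It kept as GMP KO only KO-178 and KO-179, both with a high share of reads outside genes. KO-352 had the lowest Dnmt3a of the GMP KO libraries (20.5 CPM, beside 51.7 and 65.9). Setbp1, the third member, rests on the few GMP reads given with its levels. For Nf1 the interval was wide (-1.205 to 0.125), and for Suz12 it ran from -0.44 to 0.11.

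Between the populations, driver genes passed the test in both directions. In CTRL, 18 of 30 members tested passed between LSK and GMP, 5 higher in LSK (beside 28.2% of all genes) and 13 lower (beside 27.3%), where 55.4% of all genes passed in either direction. In KO it was 20 of 30, 5 higher (beside 30.7%) and 15 lower (beside 30.1%), where 60.9% of all genes passed. Both shares of members, 60% and 66.7%, were near those backgrounds. Called in both genotypes were 17, of which 5 were higher and 12 lower. Ptpn11 passed in CTRL alone, and Asxl2, Nras and Nsd1 in KO alone. A change of at least 2-fold passed for 5 of 30 in CTRL, beside 32.9% of all genes, and for 7 of 30 in KO, beside 34.4%. The median absolute change was 0.39 in CTRL, beside 0.85 over all genes, and 0.47 in KO, beside 0.80. Population coincides here with the count table, its annotation and its depth, and these cannot be told apart. All GMP libraries were male, and every female library (CTRL-1330, KO-1333 and KO-1334) was from LSK. Sex therefore coincided with population in part, and its part in these differences was not tested. Scaling by library totals alone moved the median of all genes from 0.12 to 0.53 in CTRL and from 0.08 to 0.46 in KO. Calls of all genes then went 7911 higher to 2886 lower in CTRL, beside 5303 to 5139, and 8426 to 3488 in KO, beside 5788 to 5678. Directions and counts of list genes below are those of the TMM scaling. The shares of all genes called higher and lower given above are the background of those counts. Setbp1, among the 5 called higher in each genotype, passed the filter of this fit through its LSK reads alone. Only that direction could therefore be called for it, also where it is listed next. The 11 genes Cbl, Calr, Suz12, Kmt2a, Setbp1, Srsf2, U2af1, Cux1, Trp53, Idh1 and Npm1 were called in the same direction in both genotypes under all 15 alternatives run.

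**Figure D4:**
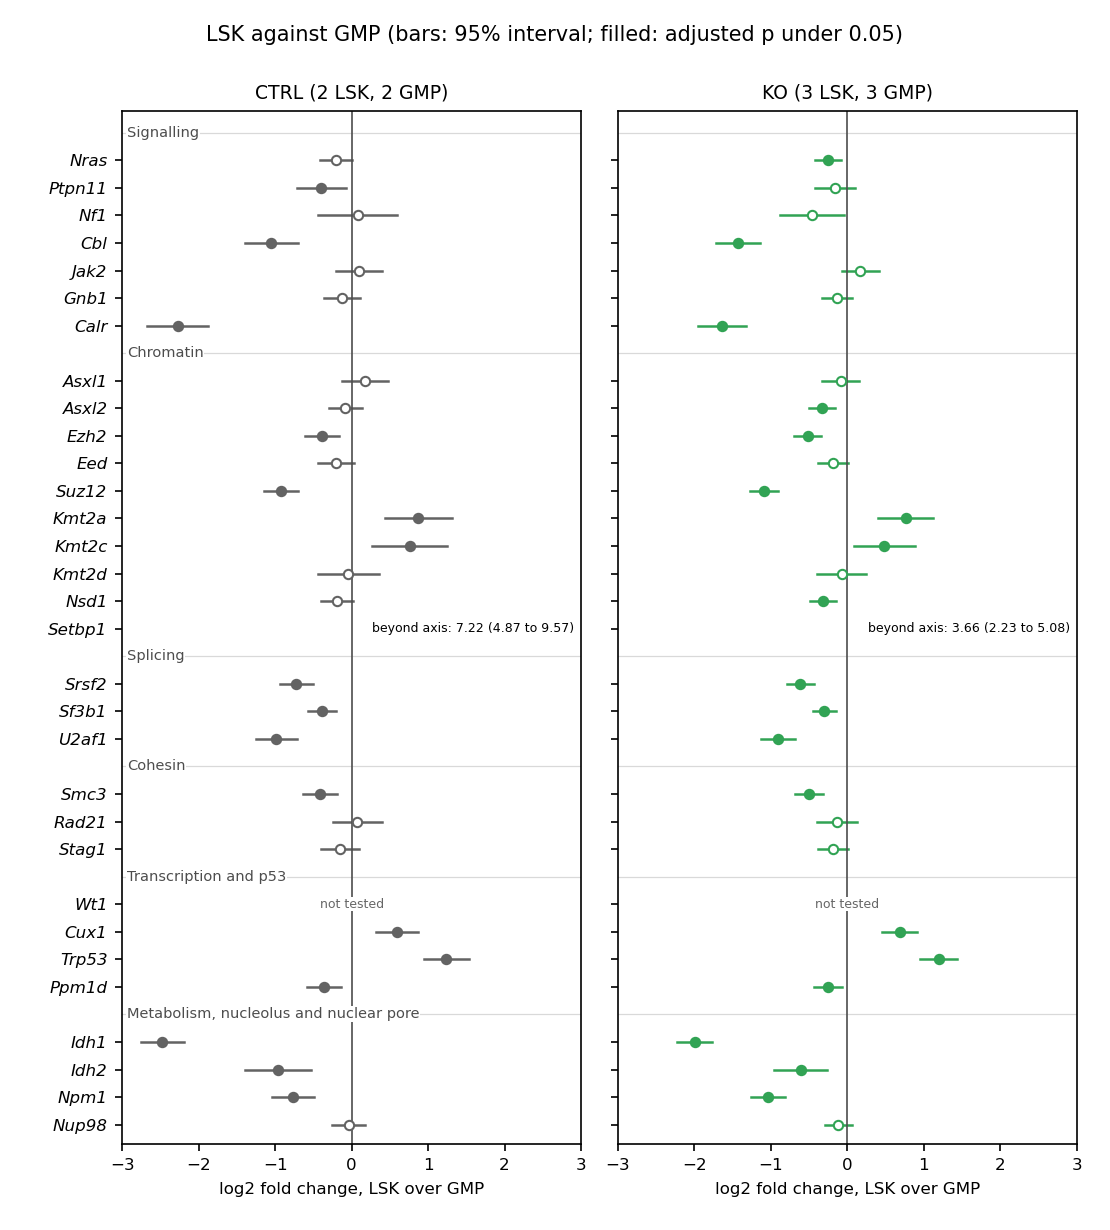
Fitted log2 fold change of LSK over GMP for each driver gene in CTRL (left) and KO (right), with 95% intervals as bars and filled points for an adjusted p under 0.05. Calr and Idh1 lie furthest to the left in both panels and Trp53 furthest to the right among the genes on the axis; the Setbp1 values are fitted from 1 and 22 GMP reads and depend on the prior count.

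Of the metabolism, nucleolus and nuclear pore members, 3 of 4 passed as lower in LSK in both genotypes. Idh1 was at 54.8 ± 0.25 CPM (SD, n = 2) in LSK CTRL and 304.7 ± 17.1 (n = 2) in GMP CTRL, a log2 difference of -2.47 ± 0.13 (SE; edgeR, adjusted p = 3.72e-07), and at 53.05 ± 4.95 (n = 3) and 212 ± 22.4 (n = 3) in KO, a difference of -2.00 ± 0.10 (1.55e-07). No LSK library came near a GMP library. Idh2 was at 242 ± 18.3 CPM in LSK CTRL and 471 ± 76.8 in GMP CTRL (-0.96 ± 0.19, adjusted p = 0.00179), and in KO the difference was -0.61 ± 0.16 (0.00659), a call lost when scaled by library totals. Npm1 gave -0.76 ± 0.12 in CTRL (0.000455) and -1.03 ± 0.10 in KO (1.04e-05). Nup98 did not pass in either genotype (-0.04 ± 0.10 and -0.12 ± 0.08). The partners lay the same way. Of 8 isocitrate and 2-oxoglutarate enzymes 7 passed as lower in LSK in CTRL (beside 27.3% of all genes) and 7 in KO (beside 30.1%). They were led by Idh3g, a subunit of the mitochondrial NAD-dependent enzyme (-0.87 ± 0.10 and -1.01 ± 0.08). Of 10 nucleolar and nuclear transport genes 9 passed as lower in each genotype, beside the same shares of all genes. Among them was Nup214, a nuclear pore protein (-0.74 ± 0.10 and -0.75 ± 0.08).

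Among the signalling members Calr was at 1062 ± 62.6 CPM (SD, n = 2) in LSK CTRL and 5136 ± 675 (n = 2) in GMP CTRL, a log2 difference of -2.27 ± 0.18 (SE; edgeR, adjusted p = 4.61e-06). In KO it was at 1017 ± 114 (n = 3) and 3162 ± 619 (n = 3), a difference of -1.64 ± 0.14 (4.67e-06). Cbl was at 68.8 and 69.3 CPM in LSK CTRL and at 68.0, 63.8 and 65.2 CPM in LSK KO, below every GMP library (137 to 198 CPM). Its log2 difference was -1.05 ± 0.16 in CTRL (0.000268) and -1.43 ± 0.13 in KO (5.66e-06). Ptpn11 passed in CTRL (-0.39 ± 0.14, adjusted p = 0.0369) and not in KO (-0.16 ± 0.12, 0.248), and Nras passed in KO (-0.25 ± 0.08, 0.0162) and not in CTRL (-0.20 ± 0.10, 0.0897); both turned positive when scaled by library totals. The Ptpn11 call was lost without any 1 of GMP KO-178, GMP CTRL-346 (-0.16), LSK CTRL-1326, LSK CTRL-1330, LSK KO-1333 or LSK KO-1334 (adjusted p = 0.0519 to 0.391). The Nras call was lost without any 1 of GMP KO-179, GMP KO-352, LSK KO-1327 or LSK KO-1334 (adjusted p = 0.0503 to 0.0770). Nf1, Jak2 and Gnb1 did not pass in either genotype. Of 16 RAS-MAPK partners 5 were called higher and 7 lower in LSK CTRL, and 6 and 9 in KO, with Rasa2, another RAS-inactivating protein, at -1.28 ± 0.13 and -1.202 ± 0.103, and Mapk3, the kinase ERK1, at -1.14 ± 0.12 and -1.04 ± 0.10. Of 10 JAK-STAT partners 6 were called higher and 1 lower in CTRL and 7 higher and 0 lower in KO, led by Cish, a STAT5-induced inhibitor (3.63 ± 0.31 and 4.53 ± 0.26), and Jak3, the kinase of the common gamma chain receptors (2.11 ± 0.23 and 2.09 ± 0.19).

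Chromatin members went both ways. Suz12 (ENSMUSG00000017548, chromosome 11, 79993106 to 80034123, plus strand) was at 161 and 150.4 CPM in LSK CTRL and at 163, 168 and 148 CPM in LSK KO, below every GMP library (289 to 351 CPM). Its log2 difference was -0.92 ± 0.10 in CTRL (edgeR, adjusted p = 3.07e-05) and -1.09 ± 0.08 in KO (1.56e-06). Ezh2 gave -0.39 ± 0.10 in CTRL (0.00790) and -0.52 ± 0.08 in KO (0.000299), while Eed did not pass (-0.20 ± 0.11 and -0.19 ± 0.09), and the differences between these subunits were not tested. Kmt2a was higher in LSK, at 191 and 220.3 CPM in CTRL beside 93.8 and 131 CPM in GMP CTRL (0.87 ± 0.20, 0.00378) and at 235, 159 and 201 CPM in KO beside 129, 118 and 105 CPM (0.76 ± 0.16, 0.00207). Kmt2c was also higher (0.76 ± 0.22, 0.0148, and 0.49 ± 0.18, 0.0383), although its CTRL call was lost without GMP CTRL-346 (adjusted p = 0.0907) or LSK CTRL-1330 (0.0705). Its KO call was lost without any 1 of GMP KO-352, LSK CTRL-1326, LSK KO-1327, LSK CTRL-1330 or LSK KO-1334 (adjusted p = 0.0541 to 0.143). Kmt2d and Asxl1 did not pass in either genotype. Asxl2 (-0.33 ± 0.08, 0.00389) and Nsd1 (-0.31 ± 0.08, 0.00489) passed as lower in KO alone, and both turned positive when scaled by library totals, as did Ezh2 in CTRL, while the KO call of Ezh2 was lost (-0.14, adjusted p = 0.193). Without LSK CTRL-1330 the Ezh2 call in CTRL was lost (-0.34, adjusted p = 0.0601). PRC2 partners gave 2 higher and 3 lower of 8 in CTRL and 2 higher and 5 lower in KO, with Rbbp4, a histone-binding subunit, at -0.84 ± 0.10 and -0.81 ± 0.08, and Phf1, a PRC2 accessory protein, at 1.78 ± 0.36 and 1.94 ± 0.30. COMPASS partners gave 4 higher and 4 lower of 12 in CTRL and 5 and 4 in KO, with the shared subunits Wdr5 at -0.90 ± 0.11 and -0.84 ± 0.09 and Dpy30 at -0.95 ± 0.13 and -0.96 ± 0.11. Of 8 ASXL-BAP1 partners 1 was called higher and 1 lower in CTRL, and 1 and 0 in KO.

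Every splicing member was lower in LSK in both genotypes. Srsf2 was at 225 and 253 CPM in LSK CTRL and at 238, 254 and 266 CPM in LSK KO, below every GMP library (375 to 412 CPM), with log2 differences of -0.72 ± 0.10 (edgeR, adjusted p = 0.000140) and -0.61 ± 0.08 (7.62e-05). U2af1 was at 54.8 and 56.6 CPM in LSK CTRL and at 52.98, 66.6 and 58.9 CPM in LSK KO, beside 104 to 118 CPM in GMP (-0.98 ± 0.12, 8.45e-05, and -0.90 ± 0.10, 2.41e-05). Sf3b1 differed less (-0.38 ± 0.08, 0.00290, and -0.30 ± 0.07, 0.00319) and turned to 0.03 and 0.08 when scaled by library totals. Of 16 splicing partners 2 were called higher and 7 lower in each genotype, with Sf3b6, which contacts the branch point, at -0.92 ± 0.12 and -0.91 ± 0.10.

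Of the cohesin members Smc3 alone passed (-0.41 ± 0.10, edgeR, adjusted p = 0.00607, and -0.51 ± 0.08, 0.000373), and scaled by library totals its CTRL value turned to 0.01 and its KO call was lost (-0.13, adjusted p = 0.111). Without LSK CTRL-1330 its CTRL call was lost (-0.33, adjusted p = 0.0582). Rad21 (0.07 ± 0.15 and -0.13 ± 0.12) and Stag1 (-0.15 ± 0.11 and -0.19 ± 0.09) did not pass. Of 12 cohesin partners 7 were called lower and 0 higher in CTRL, and 9 lower and 1 higher in KO, among them Cdca5, which encodes sororin, a protector of cohesion in dividing cells (-0.68 ± 0.11 and -0.63 ± 0.09). The 14 cell cycle genes summed to 4165 to 4837 CPM in LSK libraries and 6318 to 7356 CPM in GMP libraries. In CTRL 12 of 14 were called lower in LSK (beside 27.3% of all genes), and in KO 11 lower (beside 30.1%) and 1 higher. The part of the cell cycle genes in the cohesin, splicing and PRC2 values was not tested.

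Trp53 (ENSMUSG00000059552, chromosome 11, 69580359 to 69591873, plus strand) was the member furthest above GMP in LSK apart from Setbp1. It was at 133 and 128 CPM in LSK CTRL and at 117, 123 and 127 CPM in LSK KO, more than in any GMP library (44.5 to 59.3 CPM). The log2 difference was 1.24 ± 0.13 in CTRL (edgeR, adjusted p = 3.49e-05) and 1.197 ± 0.11 in KO (6.52e-06). Trp53 has 1 named pseudogene. Cux1 was higher in LSK as well (0.59 ± 0.13, 0.00246, and 0.69 ± 0.10, 0.000204), with all LSK libraries at 419 CPM or more and all GMP libraries at 341 CPM or less. Ppm1d was lower (-0.36 ± 0.10, 0.0105, and -0.25 ± 0.08, 0.0216), but turned positive when scaled by library totals. Its CTRL call was lost without GMP CTRL-346 (adjusted p = 0.0638) or LSK CTRL-1330 (0.0876), and its KO call with DESeq2 (0.0514) or without GMP KO-179, LSK KO-1327 or LSK KO-1334 (0.0600 to 0.0913). Of 9 p53 partners 2 were called higher and 3 lower in CTRL, and 2 and 2 in KO, with Trp53bp1, a DNA break-binding protein, at 0.60 ± 0.09 and 0.66 ± 0.08.

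Wt1 (ENSMUSG00000016458, chromosome 2, 105126529 to 105173616, plus strand), a zinc-finger transcription factor that recruits TET enzymes, had 1 read in GMP CTRL-350, 1 in LSK KO-1334 and 0 in the other 8 libraries, so it was not tested. Setbp1 (ENSMUSG00000024548, chromosome 18, 78750380 to 79109391, minus strand), which binds the SET protein, was read mainly in LSK. It had 41 and 40 reads in LSK CTRL and 38, 31 and 33 in LSK KO, or 0.93 to 1.25 CPM. In GMP it had 1 and 0 reads in CTRL and 13, 8 and 1 in KO-178, KO-179 and then KO-352, at most 0.14 CPM, which was under the filter of the GMP test. Pooled over libraries its level in LSK CTRL was 198 times that in GMP CTRL (81 reads against 1, 95% exact interval of the ratio 34.5 to 7909), and in KO 12.8 times (102 against 22, 8.05 to 21.4). Between GMP KO and CTRL the ratio was 12.6 (22 reads against 1, 2.04 to 521), carried by KO-178 and KO-179. These intervals cover counting error only.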

How the data were processed

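Total RNA libraries were stranded and had ribosomal RNA removed, per the labels' protocols, so they can also hold unspliced RNA. The authors deposited raw counts of reads per Ensembl gene. The submitters' processing notes name HTSeq 0.5.3p3, STAR, DESeq2 1.4.5, DESeq 1.18.0 and the mm10 build (GRCm38), without saying what each was used for, and neither annotation release nor strand setting is stated. There are 38924 genes in the GMP counts and 45513 in those of LSK. Lines of totals that name no gene (38.8% to 43.5% of the GMP reads listed) entered no library size and no test. The deposited normalized signal was the count over a single size factor for each library (tolerance 0.1%), and gave an alternative scaling.

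The main test was edgeR 4.0.16 in R 4.3.3: filterByExpr (minimum count 10), TMM, glmQLFit and glmQLFTest, two-sided, Benjamini-Hochberg adjustment over all genes tested, threshold 0.05. KO and CTRL were compared within each population. LSK against GMP and the difference of KO effects came from 1 fit of all 10 libraries over shared gene IDs. SE is the log2 fold change over the square root of F. Printed CPM uses the TMM library sizes of that fit, and coordinates are from GENCODE (GRCm38, 1-based). DESeq2 1.42.0, limma-voom (limma 3.58.1), other scalings, no filter and leaving out each library were alternatives. The edgeR script was tested on simulated counts. Members, gene lists and the rule for named genes (all members, at most 2 genes with the smallest p per partner list) were chosen with earlier results of these data known.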

Additional observations from a re-analysis of the deposited data

How the results depend on the processing

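Between KO and CTRL in GMP, 0 driver genes passed in the reported fit, 2 with DESeq2 and 1 with the percentage of reads off genes as a covariate, and 0 when any single library was left out (0 to 0). In LSK the count was 0 under all 13 alternatives run. For the difference of KO effects it was 0 to 1 when single libraries were left out, the 1 being Calr without GMP KO-352. For LSK against GMP in KO, leaving out single libraries gave 17 to 20 of the 20 calls. Calls of all genes then ran from 9909 to 11426, beside 11466 in the reported fit. In CTRL, leaving out a CTRL library leaves 1 library in a group, so the count of driver genes called is not given. Counts given here for KO against CTRL and for the difference of effects also include such fits. So do the LSK against GMP calls described as kept or lost in CTRL, which are to be read with that limit. The log2 value of Cux1 in LSK ran from -0.3927 to 0.0437 when single libraries were left out, the latter without CTRL-1330. Over all genes, edgeR called 6 in GMP, beside 718 with DESeq2, 0 with limma-voom, 50 with no filter, 205 with the covariate, 182 with all libraries in 1 fit and 1 to 172 with single libraries left out (172 without KO-352). In LSK it called 4, beside 21 with DESeq2, 27 with no filter, 0 with all libraries in 1 fit and 3 to 11 with single libraries left out. For the difference of effects it called 5, beside 218 with DESeq2, 2 with limma-voom, 38 with no filter and 1 to 513 with single libraries left out (513 without KO-352). Scaling by library totals, chosen after seeing the data, turned Ptpn11 (0.0297), Ezh2 (0.0260), Sf3b1 (0.0331), Smc3 (0.0084) and Ppm1d (0.0527) in CTRL and Nras (0.1274), Asxl2 (0.0503), Nsd1 (0.0651), Sf3b1 (0.0828) and Ppm1d (0.1306) in KO. In CTRL 12 of 18 called members and in KO 11 of 20 kept their call and direction under every alternative run. No paired analysis was possible because the groups share no replicate numbers. Depth limits the values of Setbp1 and Wt1, which rest on few reads. The kept calls of Setbp1 between populations are of the only direction that its passing the filter through LSK allowed.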

Other observations

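Other chaperones of the compartment of Calr also had negative values in GMP. A set of 10 endoplasmic reticulum folding genes, chosen after the Calr values were seen and given as a description with no test, had log2 fold changes between KO and CTRL of -0.91 (Sdf2l1) to -0.22 (Canx) in GMP, with a median of -0.68, and none passed (lowest edgeR adjusted p = 0.278). Hspa5, which encodes the chaperone BiP, was at 3336 and 2589 CPM in GMP CTRL-346 and CTRL-350 and at 1529, 1376 and 2278 CPM in KO-178, KO-179 and then KO-352. Pdia4, a disulphide isomerase, was at 900.0 and 700 CPM in CTRL and at 410, 362 and 577 CPM in KO. For 7 of the 10 all KO libraries lay below both CTRL libraries, beside 14.6% of all genes, and KO-352 was the nearest to CTRL for Hspa5 and Pdia4. In LSK the same 10 ran from -0.03 to 0.14 between KO and CTRL. All 10 were called lower in LSK than in GMP in CTRL, by -1.32 to -3.06 on the log2 scale, as Calr was, beside 27.3% of all genes. Of the 9 with a promoter in the RefSeq table, 5 (Canx, Dnajc3, Hsp90b1, Hspa5 and Pdia6) held the endoplasmic reticulum stress element in any of their promoters. Over all promoters, counted by promoter and not by gene, the share was 0.113%. These genes were picked for a role like that of Calr, and the element is tied by name to their compartment. The count is therefore a description and no test is drawn from it.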
